A study of Mus musculus with 4 samples.

Results

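The Hox genes of the 4 mouse clusters were followed in spermatogonia whose retinoic acid signalling was intact or impaired. Every gene whose symbol is Hox followed by a cluster letter from a to d and a number was taken, which gave 39 genes of 45209 symbols in the table. They fell into 35 table entries, because some genes of the same cluster were given 1 pooled value: Hoxa2 with Hoxa3, Hoxc10 with Hoxc5, Hoxd10 with Hoxd11 and Hoxd3 with Hoxd4. All 39 genes were found, 11 in HoxA, 10 in HoxB, 9 in HoxC and 9 in HoxD.

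The cells were THY1+ spermatogonia of C57BL/6 mice at postnatal day 4, pulled from whole testis with magnetic beads against CD90.2, the THY1 surface protein. The study sequenced 2 control libraries and 2 libraries of a mutant whose retinoic acid (RA) signalling was impaired in germ cells, and the labels name neither the allele nor the promoter that restricts it. The deposited table gives 1 combined RPKM value per genotype (a read count divided by transcript length and by library size), so there is no spread between replicates, no SD and no p-value below. Nothing in the labels ties the 2 libraries of a group to different animals. All 19 germ cell identity genes stood at 1 RPKM or more in 1 or both genotypes, among them Ddx4, the germ cell RNA helicase, at 88.6 RPKM in control cells against 113.7 RPKM in mutant cells. Markers of somatic cells were present as well, and their levels are given beside the Hox results.

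Hox genes encode homeodomain transcription factors that set position along the body axis. Within a cluster they are numbered from the 3' end, whose low-numbered anterior genes are turned on first in the embryo, to the 5' end with the posterior genes, and genes with the same number in different clusters form a paralog group. Retinoic acid is a classical inducer of the 3' genes, through response elements bound by its receptors, and Polycomb and Trithorax proteins keep Hox genes silent or active afterwards. Several Hox genes are expressed in the mesenchyme of the urogenital ridge, and in germ cells many developmental genes are known to carry Polycomb marks.

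The sequences directly upstream of 5 Hox genes named below are shown first as examples, to show which receptor and Hox cofactor letters lie at their starts. They are the 250 bases before the RefSeq start on GRCm38.p6, plus strand, and capitals mark either a retinoid receptor core site (the consensus AGGTCA, its variant AGTTCA, the letters GGGTCA, or the related GGTTCA) or the PBX-HOX letters TGATNNAT, on either strand. Hoxb1 is at chr11:96365508-96365757, Hoxb4 at chr11:96318017-96318266 and Hoxb8 at chr11:96281655-96281904, all in HoxB. Hoxd8 is at chr2:74704365-74704614 and Hoxd9 at chr2:74697513-74697762, in HoxD.
Hoxb1: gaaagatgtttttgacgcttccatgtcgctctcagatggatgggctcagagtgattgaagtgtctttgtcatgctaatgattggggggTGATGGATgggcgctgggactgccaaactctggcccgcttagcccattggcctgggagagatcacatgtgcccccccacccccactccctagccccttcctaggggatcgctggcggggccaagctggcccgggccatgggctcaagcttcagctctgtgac
Hoxb4: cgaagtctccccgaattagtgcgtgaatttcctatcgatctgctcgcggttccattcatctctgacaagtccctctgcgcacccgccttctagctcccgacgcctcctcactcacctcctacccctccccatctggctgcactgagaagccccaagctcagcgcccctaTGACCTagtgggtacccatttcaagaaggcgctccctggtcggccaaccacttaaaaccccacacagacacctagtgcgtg
Hoxb8: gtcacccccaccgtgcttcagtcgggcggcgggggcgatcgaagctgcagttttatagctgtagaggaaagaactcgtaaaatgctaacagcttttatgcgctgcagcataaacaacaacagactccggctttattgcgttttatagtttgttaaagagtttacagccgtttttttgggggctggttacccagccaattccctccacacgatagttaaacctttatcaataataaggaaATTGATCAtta
Hoxd8: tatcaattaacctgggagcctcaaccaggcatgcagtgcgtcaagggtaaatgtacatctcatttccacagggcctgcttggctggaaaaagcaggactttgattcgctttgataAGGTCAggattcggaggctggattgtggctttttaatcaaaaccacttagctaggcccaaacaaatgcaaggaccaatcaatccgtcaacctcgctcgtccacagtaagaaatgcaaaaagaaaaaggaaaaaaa
Hoxd9: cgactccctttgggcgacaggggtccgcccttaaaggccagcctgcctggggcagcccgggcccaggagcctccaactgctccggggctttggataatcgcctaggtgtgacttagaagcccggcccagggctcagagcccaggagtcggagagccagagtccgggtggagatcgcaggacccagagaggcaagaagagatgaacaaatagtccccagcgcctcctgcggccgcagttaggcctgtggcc
The Hoxb1 and Hoxb8 windows each held 1 PBX-HOX match, the Hoxb4 and Hoxd8 windows each held 1 retinoid core site, and the Hoxd9 window held neither. Retinoid core sites were in 37.5% of 24 Hox windows and 38.6% of all 32851 windows of this length. PBX-HOX letters were in 16.7% of the Hox windows and 7.68% of all windows. No Hox window held the core site as a direct repeat spaced by 5 or by 2 bases, the classical forms of a retinoic acid response element. Of all windows, 0.0883% and 0.174% held these repeats. Shares this low make none among 24 windows the likely outcome, and elements outside the windows were not searched. Windows were at hand for 22 of the 39 Hox genes, and the matches describe letters, not bound sites.

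HoxD and HoxB carried most of the Hox RNA in both genotypes. Summed over entries, HoxD was at 17.3 RPKM in control cells against 10.8 RPKM in mutant cells, and HoxB at 11.99 and 8.16 RPKM. HoxC was at 2.09 and 2.42 RPKM, and HoxA at 0.807 and 0.980 RPKM over 10 entries. As shares of the summed Hox RPKM, HoxD held 53.8% in control and 48.3% in mutant cells, and HoxB held 37.2% and 36.5%. The shares of HoxC (6.47% and 10.8%) and HoxA (2.51% and 4.38%) were larger in mutant cells. Among paralog groups, counting only genes with an entry of their own, group 8 was the highest at 10.1 and 7.17 RPKM, followed by group 9 at 4.89 and 2.91 RPKM and group 7 at 3.68 and 3.11 RPKM. Groups 11 and 12 were the lowest, at 0.0196 and 0.0193 RPKM and at 0.0148 and 0.0291 RPKM.

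**Figure D1:**
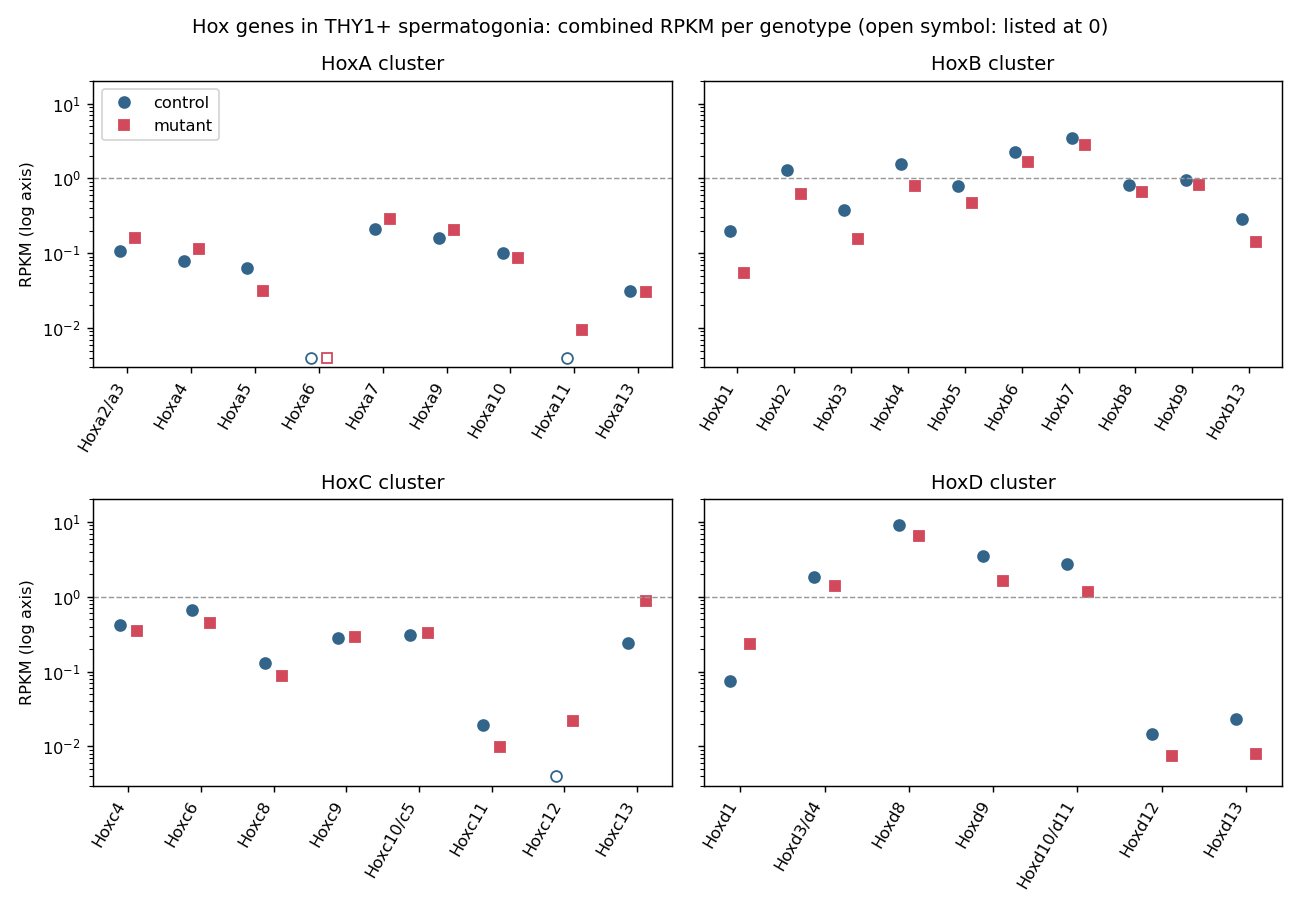
Combined RPKM (log axis) of the Hox entries reported here in control (circles) and mutant (squares), by cluster in paralog order, with open symbols for values listed at 0 and a dashed line at 1 RPKM. HoxB and HoxD entries reach between 1.29 and 9.19 RPKM in control at their highest 8, while no HoxA or HoxC entry reaches 1 RPKM.

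The 8 entries with an RPKM of 1 or more in 1 or both genotypes, which hold 10 Hox genes, all had a lower mutant value. Hoxb2 and Hoxb4 reached 1 RPKM in control cells only, so the filter itself fixed their direction. The other entries reached it in both genotypes. Any lower value was seen in 49.7% of the 17247 entries that passed the same filter, and in 45.4% of those with a mean of 10 RPKM or less. The median log2 difference of the 8, as log2((mutant RPKM + 1) / (control RPKM + 1)), was -0.48, against 0.004 for all 17247. None of the 8 was lower by 2-fold or more on this scale, where 4.33% of all entries were, and none was higher, where 4.35% were (8.69% in either direction). With a pseudocount of 0.1 in place of 1, Hoxd9 and the entry of Hoxd10 with Hoxd11 were past 2-fold, 2 of 8 against 6.69% of all entries lower and 8.46% higher. After rescaling the mutant values so that the germ cell identity genes had a median difference of 0, Hoxd8 was past 2-fold lower too, which made 3 of 8 against 18.9% of all entries. That rescaling took the median of all entries to -0.55 and that of the 8 Hox entries to -0.74. In these bulk samples, fewer cells of a type and less RNA per cell cannot be told apart.

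HoxD held the highest level and the largest differences of entries past the filter. Hoxd8 (chromosome 2, 74704615 to 74707933, GRCm38), a central gene, was the highest Hox gene at 9.19 RPKM in control cells against 6.42 RPKM in mutant cells. Its log2 difference was -0.46, a 1.43-fold lower RPKM with a 95% counting interval of 1.31 to 1.56. Counting intervals for genes with several transcripts rest on the read number over the longest coding transcript, and all of them cover counting error only. Hoxd8 made up 28.5% of the summed Hox RPKM in control and 28.7% in mutant, so its share was nearly the same.

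Hoxd9 (chromosome 2, 74697727 to 74700208), a posterior gene used in limb and axial patterning, was at 3.50 RPKM in control cells against 1.61 RPKM in mutant cells. It has 1 annotated transcript, and the values stood for 380 reads (95% Poisson interval 343 to 420) and 178 reads (153 to 206). This was a 2.17-fold lower RPKM (counting interval 1.81 to 2.61), with a log2 difference of -0.79. The entry that pools Hoxd10 and Hoxd11 with Gm28309 was at 2.71 and 1.16 RPKM, 2.34-fold lower, with a log2 difference of -0.78. The other pooled entry, Hoxd3 with Hoxd4 and Gm28230, was at 1.81 and 1.39 RPKM (1.31-fold lower, -0.24 in log2), and the antisense Hoxd3os1 overlaps it and Hoxd8. The 5'-most genes Hoxd12 and Hoxd13 were at the limit of detection, with at most 3 reads in either genotype.

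Hoxd1, the 3'-most gene of HoxD, went the other way. It was at 0.0748 RPKM in control cells against 0.235 RPKM in mutant cells, or 7 reads (2.81 to 14.4) and 22 reads (13.8 to 33.3), and these Poisson intervals overlapped slightly. The mutant RPKM was 3.14-fold higher, with a counting interval of 1.30 to 8.70. Read by position, the HoxD ratio of control to mutant thus went from 0.318 at Hoxd1 through 1.31, 1.43 and 2.17 to 2.34 at Hoxd10 with Hoxd11. Hoxd1 was named after its values were seen, as were all members below 1 RPKM in both genotypes other than Hoxb9, the highest of them.

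In HoxB all 10 genes had lower mutant values, 4 of them above the filter. Of these 4, Hoxb2 and Hoxb4 passed through control cells only. Among all entries above 0 in 1 or both genotypes, 46.5% had a lower mutant value. Hoxb7, a central gene, was the highest of the cluster at 3.47 RPKM in control cells against 2.82 RPKM in mutant cells (log2 difference -0.23). Hoxb6, its 3' neighbour, was at 2.27 and 1.65 RPKM (-0.30). Hoxb4 (chromosome 11, 96318267 to 96321638), known for its role in blood stem cells and for a retinoic acid response element in its regulatory region, was at 1.54 and 0.794 RPKM (-0.50). Hoxb2, a hindbrain gene, was at 1.29 and 0.610 RPKM (-0.51).

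Hoxb4 has 1 annotated transcript, and its values stood for 204 reads (177 to 234) in control and 107 reads (87.7 to 129) in mutant. These intervals, which cover counting error only, did not overlap. Hoxb13, which lies 74.0 kb beyond Hoxb9 at the 5' end, was at 0.284 and 0.140 RPKM, or 32 reads (21.9 to 45.2) and 16 reads (9.15 to 26.0).

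The HoxB ratio of control to mutant was larger toward the 3' end. It was 3.64 for Hoxb1 (0.2001 and 0.0549 RPKM, counting interval 1.42 to 11.03), 2.11 for Hoxb2 (1.49 to 3.02), 2.46 for Hoxb3 (0.376 and 0.153 RPKM, 1.54 to 4.05) and 1.94 for Hoxb4 (1.53 to 2.48). Hoxb5, at 0.796 and 0.464 RPKM, had a ratio of 1.71 (1.17 to 2.54), and Hoxb6 one of 1.38 (1.12 to 1.69). Hoxb7 had a ratio of 1.23 (1.001 to 1.51), Hoxb8 (0.823 and 0.667 RPKM) also 1.23 (0.928 to 1.64), and Hoxb9 (0.944 and 0.812 RPKM) 1.16 (0.892 to 1.51). The intervals of Hoxb2, Hoxb3 and Hoxb4 thus overlapped those of Hoxb5 and Hoxb1, and the lower limit for Hoxb4 lay above the upper limits for Hoxb7 and Hoxb9 but below that for Hoxb8.

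Across these 9 genes, which span 96.8 kb, Spearman's rho between the paralog number and the log2 ratio was -0.97 and Pearson's r was -0.94. Without Hoxb1, whose values rest on about 21 and 6 reads, rho was -0.95 over 8 genes. With Hoxb13 added, at a ratio of 2.03, rho was -0.72 and r was -0.58 over 10 genes. The genes share the same libraries, Hoxb2, Hoxb3, Hoxb5 and Hoxb6 overlap other transcripts of the cluster, and the order was noticed in these values, so it is a description and carries no p-value. A common rescaling of the mutant column changes every ratio by the same factor and leaves the order as it is. In HoxD the larger ratios lay toward the 5' end, and the difference between the clusters could not be tested with 1 value per genotype.

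**Figure D2:**
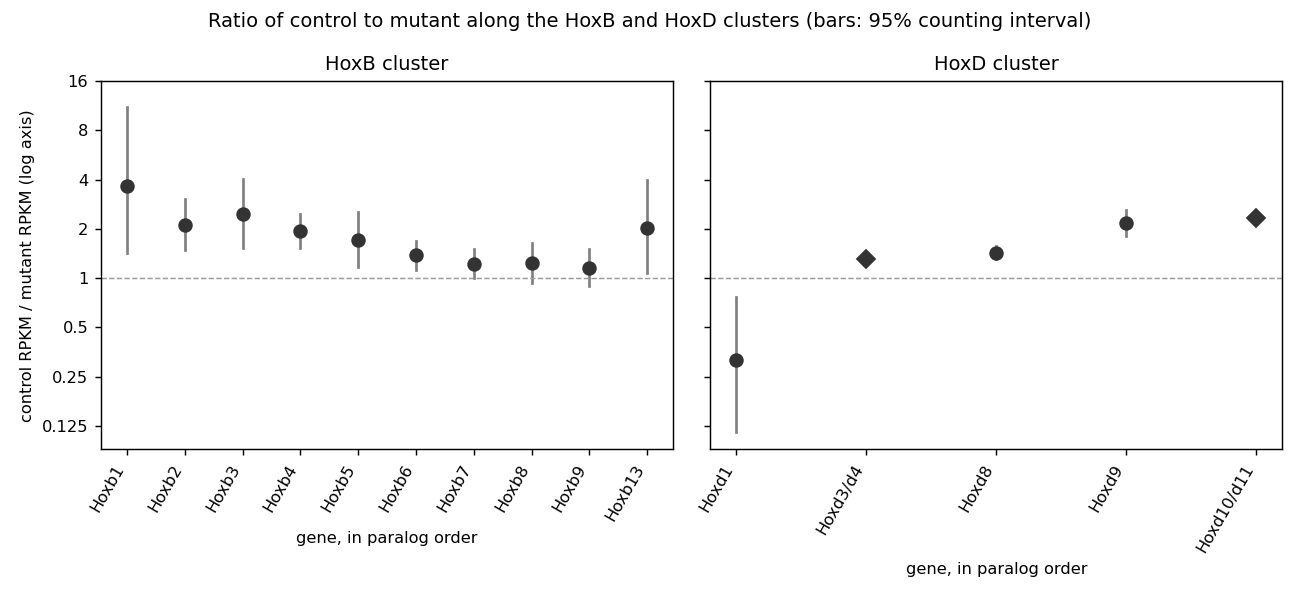
Ratio of control to mutant RPKM (log axis) for HoxB and HoxD in paralog order, with 95% counting intervals as bars and diamonds for entries that pool several genes and have none. HoxB falls from 3.64 at Hoxb1 to 1.16 at Hoxb9, HoxD goes from 0.318 at Hoxd1 to 2.34 at Hoxd10 with Hoxd11, and Hoxd12 and Hoxd13 (3 reads or fewer) are not drawn.

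HoxA and HoxC were below 1 RPKM in every entry. The highest HoxA gene was Hoxa7, at 0.211 RPKM in control cells against 0.287 RPKM in mutant cells, with a ratio of mutant to control of 1.36 (counting interval 0.754 to 2.50), and its log2 difference of 0.09 turned to -0.03 after rescaling to germ cell genes. Of the 10 HoxA entries 4 were lower and 5 higher in mutant, and Hoxa6 was listed at 0 in both.

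In HoxC, 4 of 8 entries were lower and 4 higher in mutant. The central genes Hoxc4 (0.424 and 0.354 RPKM), Hoxc6 (0.676 and 0.448 RPKM) and Hoxc8 (0.131 and 0.0877 RPKM) were lower. Hoxc9 and the entry of Hoxc10 with Hoxc5 were nearly level, at 0.282 and 0.286 RPKM and at 0.311 and 0.333 RPKM. Hoxc13 (chromosome 15, 102921103 to 102928814), the 5'-most gene and known for hair and nail formation, was at 0.242 RPKM in control cells against 0.881 RPKM in mutant cells. With 1 annotated transcript this stood for about 31 reads (21.1 to 44.0) and 114 reads (94.0 to 137), a 3.64-fold higher mutant RPKM (counting interval 2.43 to 5.60). Both read numbers are rounded, since the values lay 0.29 and 0.30 of a read from a whole number. Its direction was the same after both rescalings and quantile normalization. Without Hoxc13, the HoxC sum was 1.84 RPKM in control cells against 1.54 RPKM in mutant cells.

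Of the 27 entries below 1 RPKM in both genotypes, 16 were lower, 10 higher and 1 at 0 in both, while 42.1% of all such entries above 0 had a lower mutant value. By paralog group, genes with an entry of their own were all lower in groups 2, 3, 5, 6, 8 and 10, leaving aside Hoxa6. Groups 2, 3 and 10 had only 1 such gene each, and that of group 10, Hoxa10, was at 13 and 12 reads. Few reads also lay behind Hoxa5 of group 5 (6 and 3) and Hoxc8 of group 8 (12 and 8). Of the pooled entries left out, Hoxa2 with Hoxa3 (0.108 and 0.160 RPKM) and Hoxc10 with Hoxc5 (0.311 and 0.333 RPKM) were higher in mutant. The pooled entries of Hoxd3 with Hoxd4 and of Hoxd10 with Hoxd11 were lower. In group 13, Hoxb13 was lower and Hoxc13 higher, while Hoxa13 was level at about 4 reads in each genotype and Hoxd13 was at 3 and 1 reads. Among Hox genes known for a retinoic acid response element, Hoxb1, Hoxb4 and the entry with Hoxd4 were lower, and Hoxa4 was at 6 and 9 reads.

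**Figure D3:**
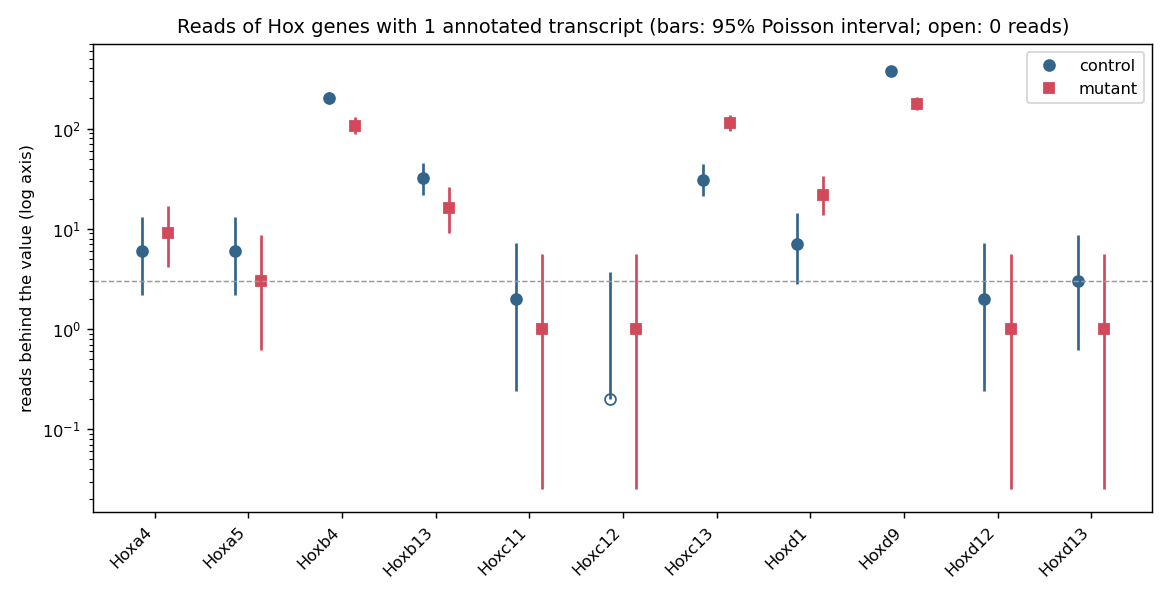
Reads behind the values (log axis) of the Hox genes with 1 annotated transcript, in control (circles) and mutant (squares), with 95% Poisson intervals, a dashed line at 3 reads and an open symbol for 0 reads; Hoxa6, at 0 in both, is not drawn. Hoxb4 and Hoxd9 are lower and Hoxc13 is higher in mutant without overlap of the intervals, which cover counting error only. How often intervals lie apart among all genes with 1 transcript was not counted, so no result about Hox genes is read from this.

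Other transcripts of the clusters were mostly listed at low values or 0. Of 33 such entries between the outermost Hox genes, 15 were at 0 in both genotypes and 4 reached 1 RPKM. The entries of Mir10a, Mir10b, Mir196a-1, Mir196a-2 and Mir615 were all at 0. Of the 15 entries at 0, 10 have no transcript longer than 175 nt, shorter than the fitted length offset of 200 to 210 nt, so a 0 there says nothing about their expression. Hotairm1, a long noncoding RNA of the HoxA cluster, was at 4.06 RPKM in control cells against 8.75 RPKM in mutant cells, 2.15-fold higher (log2 difference 0.95), in an entry that pools 5 symbols. It stayed higher after both rescalings and quantile normalization. Gm53, a noncoding gene between Hoxb13 and Hoxb9 (chromosome 11, 96251105 to 96264868), was at 4.94 and 1.99 RPKM, 2.48-fold lower (log2 difference -0.99). Hoxd3os1, antisense to Hoxd3, Hoxd4 and Hoxd8, was at 2.02 and 1.88 RPKM, a log2 difference of -0.07 that turned to 0.04 when protein-coding sums were made equal. Gm27605, the fourth entry that reached 1 RPKM, is a 136-nt RNA, shorter than that offset, and its 11.2 RPKM in control and 0 in mutant cannot be turned into reads or compared. No source used here says whether counting used the strand, so reads of antisense pairs cannot be told apart.

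Hox cofactors of the TALE homeodomain class, which bind DNA together with Hox proteins, were lower in mutant for 7 of 9 genes (49.7% of all entries). With 1 added to each RPKM none was past 2-fold, where 4.33% of all entries were lower and 4.35% higher. Their plain RPKM ratios were past 2-fold for Pbx4 (higher) and Meis3 (2.06-fold lower). The median log2 difference of -0.30 turned to 0.17 for the 4 genes at 5 RPKM or more and was -0.11 for the 7 entries with 1 symbol. Pbx2, in an entry with Gpsm3, was the most abundant at 87.3 RPKM in control cells against 48.4 RPKM in mutant cells. Pbx4, a family member expressed in testis, was at 2.59 and 5.85 RPKM, 2.26-fold higher (log2 difference 0.93), and stayed higher after each rescaling. Meis1, in an entry with Gm37818, was at 3.42 and 2.20 RPKM.

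Chromatin regulators of the Hox clusters had medians slightly above 0 in the deposited scaling and below 0 after rescaling to the germ cell identity list. Of 11 genes of Polycomb repressive complex 2, which methylates H3K27, 5 were lower and the median was 0.07, or -0.57 after rescaling to the germ cell identity list. Rbbp7, a histone-binding subunit, was its most abundant gene at 199.4 and 163.5 RPKM. Its accessory gene Mtf2 was at 90.9 and 159.8 RPKM (log2 difference 0.81), and Ezh2, the methyltransferase, at 26.0 and 25.5 RPKM. Of 20 genes of Polycomb repressive complex 1, 8 were lower with a median of 0.05 (-0.53 after that rescaling), and of 9 Trithorax group and H3K27 demethylase genes 2 were lower with a median of 0.20 (-0.39 after it). No gene of these 3 lists was past 2-fold. By the mean of both genotypes, the most abundant Polycomb repressive complex 1 entry was Kdm2b, pooled with 2 other symbols, at 52.7 and 52.6 RPKM, although Bmi1 was higher in mutant cells (36.5 and 58.7 RPKM). In the Trithorax list it was Wdr5, at 78.8 and 79.8 RPKM. The non-Hox genes next to the clusters had a median of 0.07 over 12 genes, or -0.57 after that rescaling, with 5 lower, and Atp5g1 the most abundant at 256.7 and 209.5 RPKM. The related ParaHox and Evx genes were all below 1 RPKM, with a summed RPKM of 0.468 in control and 0.222 in mutant.

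Marker genes of somatic testis cells were lower in the same mutant values. Interstitial fibroblast genes were lower for 12 of 12 members, with a median of -0.69 and a summed RPKM of 1539 in control and 650.3 in mutant. Sertoli cell genes were lower for 14 of 15 (median -0.87, sums 1061 and 507.0 RPKM), and peritubular myoid genes for 6 of 6 at 1 RPKM or more (median -0.66, sums 97.2 and 44.4 RPKM). Leydig cell genes were lower for 8 of 8 (median -1.39, sums 770.5 and 251.8 RPKM), macrophage genes for 11 of 11 (median -1.38, sums 4614 and 1669 RPKM) and mast cell genes for 8 of 8 (median -2.76, sums 234.5 and 22.1 RPKM). Endothelial genes were lower for 3 of 9, with a median of 0.14 and sums of 31.9 and 33.7 RPKM, and that median was negative after quantile normalization and after rescaling to germ cell genes. With 1 added to each RPKM, Clu, Aard, Gstm6 and Trf of the Sertoli list were lower by 2-fold or more. So were Cyp17a1, Cyp11a1, Hsd3b1, Star, Insl3, Nr5a1 and Lhcgr of the Leydig list, and Acta2 of the peritubular list. The same held for Tcf21, Col3a1, Igf1 and Mfap4 of the fibroblast list, for Lyz2, Cd68, Tyrobp, C1qa, C1qb, C1qc, Csf1r, Adgre1, Fcer1g, Aif1 and Mrc1 of macrophages, and for Mcpt2, Mcpt4, Cma1, Tpsb2, Tpsab1, Cpa3, Ms4a2 and Hdc of mast cells. The germ cell identity list was higher for 19 of 19, with a median of 0.55 and sums of 1222 and 1702 RPKM, and its median was brought to 0 by the rescaling made on it. Piwil4, a piRNA-binding protein gene, was its only member past 2-fold, at 5.94 and 14.7 RPKM.

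Set beside these, Hox entries summed to 32.2 RPKM (control) and 22.4 RPKM (mutant), a mutant level 0.695 times that of control, while that ratio was 0.423 for fibroblast, 0.478 for Sertoli, 0.456 for peritubular and 1.39 for germ cell genes. The ratio was 0.327 for Leydig, 0.362 for macrophage, 0.0943 for mast cell and 1.06 for endothelial genes. Without the most abundant entry of each list, it was 0.567 for fibroblast genes (Col3a1 left out) and 0.623 for peritubular genes (Acta2 left out). In the same way it was 0.492 for Sertoli genes (the entry with Trf left out) and 1.42 for germ cell genes (Dazl left out). The ratio of mutant to control ran from 0.275 to 0.861 over the 10 HoxB genes and from 0.427 to 0.765 over the 4 HoxD entries above the filter. Below the filter in HoxD, Hoxd1 was at 3.14, while Hoxd12 and Hoxd13 were lower at 3 reads or fewer. The ratio of summed RPKM was 1.21 for HoxA and 1.16 for HoxC, or 0.835 for HoxC without Hoxc13. Of the marker genes, Fcer1a of mast cells alone was listed at 0 in a genotype. The part of somatic cells in the Hox values was not tested.

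**Figure D4:**
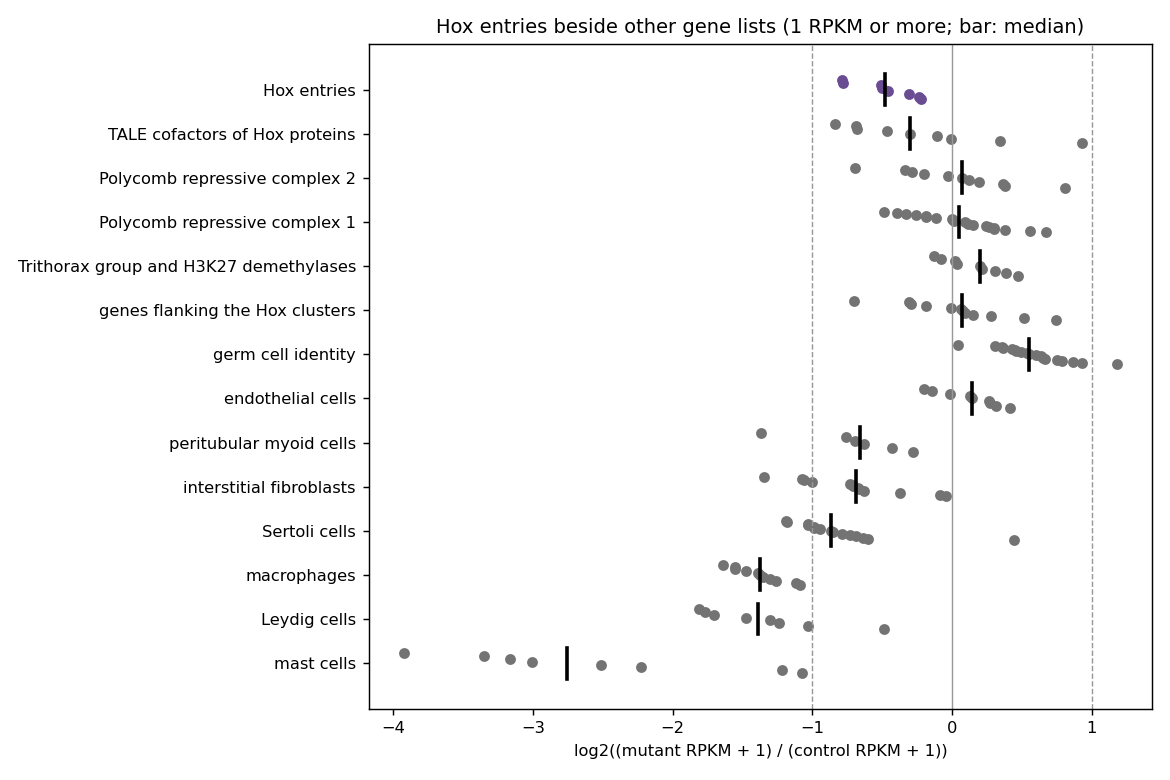
Log2 differences, log2((mutant RPKM + 1) / (control RPKM + 1)), of Hox entries and of genes in other lists with 1 RPKM or more in 1 or both genotypes; points are entries, bars are medians, and dashed lines mark 2-fold. The 8 Hox entries lie between -0.79 and -0.23 with a median of -0.48, while fibroblast, Sertoli and peritubular medians lie between -0.87 and -0.66. The gap depends on the pseudocount, which shrinks differences of low values most. With a pseudocount of 0.1 the Hox median was -0.69, beside -0.745 for fibroblast, -0.80 for peritubular and -0.96 for Sertoli genes.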

How the data were processed

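RNA-seq of 4 libraries was used as 1 deposited table. Its values are RPKM per the file headers, and each genotype's 2 libraries share 1 column. No source used here gives the counting program, the annotation or the way libraries were combined. The submitters' processing notes name TopHat2 2.0.11 and GRCm38. Members and gene lists were chosen with earlier results of these data known.

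With combined columns no test over the 4 libraries could be run, so differences are log2((mutant RPKM + 1) / (control RPKM + 1)), after a filter of 1 RPKM in either genotype, and called at 2-fold. Of 43998 entries, 43888 remained after keeping the highest mean of repeated names. Hox members at 1 RPKM or more are named, the others by counts and ranges with the highest named. In the other lists, members past 2-fold and the most abundant ones are named, without values where many. Other genes, and Hox members below 1 RPKM beyond Hoxb9, were named after their values were seen.

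What 1 read is worth was fitted on genes with 1 GENCODE M21 transcript of at least 1000 nt (2180 control, 2248 mutant genes). Whole reads, to within 0.1, were found for 90.5% of 884 low control values and for 95.3% of 900 low mutant values. Of the 24 values of the 12 Hox genes with 1 transcript, 18 were whole to within 0.1, and the others are rounded. The fitted steps, 17.85 and 17.45 RPKM × nt with length offsets of 200 and 210 nt, would mean 56.0 M control and 57.3 M mutant reads, unless the authors scaled the values again. Intervals are exact Poisson for reads and exact Clopper-Pearson for ratios, both at 95%. The fit and the calls were tested on simulated Poisson reads without spread between libraries. Only changes well past 2-fold in genes at 5 RPKM or more were simulated. That test therefore does not cover differences as small as those of the Hox entries above the filter. Python 3.11.15, pandas 2.3.3 and scipy 1.17.1 were used. The values of 1 Hox gene are not reported here, although it counts in the totals.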

Additional observations from a re-analysis of the deposited data

How the results depend on the processing

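All 8 Hox entries above the filter stayed below 0 with quantile normalization and after equalizing protein-coding sums. Hoxb2 and Hoxb4 passed that filter through control cells only. A pseudocount of 0.1 or 0.5 cannot change the sign of a difference. Rescaling to germ cell identity genes multiplied every mutant value by 0.6331, so it could not turn a lower entry either. Equalizing protein-coding sums was added after the data were seen, as were the pseudocount of 0.5 for clusters and the count without a filter. The 2 rescalings moved the median of all entries to -0.55 and 0.15. The number past 2-fold lower was 2 with a pseudocount of 0.1 (6.69% of all entries) and 3 after the germ cell rescaling (18.9% of all entries), and none was 2-fold higher under any of these. Without the filter, 24 of 35 entries lay below 0 with a median of -0.044, and an RPKM of 5 left 1 entry. The HoxB median of -0.40 was -0.66 and -0.51 with pseudocounts of 0.1 and 0.5 and -0.70 after the germ cell rescaling. The HoxD median of -0.62 was -0.79 with a pseudocount of 0.1 and -1.05 after that rescaling. That rescaling turned the Polycomb medians to -0.57 and -0.53, Trithorax to -0.39, flanking genes to -0.57 and endothelial genes to -0.28. Endothelial genes were at -0.0066 with quantile normalization and -0.17 at 5 RPKM, where the TALE median was 0.17. The list sums without their most abundant entry were added after the data were seen. No replicate could be left out, because the table holds 1 combined value per genotype. No paired analysis was possible because the columns carry no library of their own. The cause of these shifts was not tested. Depth limits HoxA, where no single-gene entry exceeds 35 reads, and Hoxc11, Hoxc12, Hoxd12 and Hoxd13, at 3 reads or fewer.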
